A study of Mus musculus with 12 samples.

Results

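The comparison set Ythdf2 knockout cells that carried an overexpression control beside the same knockout cells left unmodified, and concerned what the control construct and its handling change. It used 6 of the 12 libraries in the series, 3 labelled Ythdf2-ko-OE-CTR and 3 labelled Ythdf2-ko, chosen by those labels alone. All libraries came from GC1, an established mouse line of spermatogonial origin, and all carried the time label 24 h. The other 6 libraries, 3 of wild-type GC1 and 3 of knockout cells labelled as overexpressing Setdb1, entered the estimate of spread, and their values are given beside those of the compared groups. Both compared groups were labelled as Ythdf2 knockout and carried the same line code, YC5. The labels do not name the construct, the way it was delivered or any selection, and they do not say whether the numbered libraries of a group were separate cultures. The construct, its delivery and any other difference in preparation between the groups therefore cannot be told apart, and p-values measure the spread between these libraries, which may be technical.

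Ythdf2 is a reader of the m6A mark on mRNA and promotes the decay of its targets. Immediate early genes are transcribed within minutes of a signal from growth factors, serum, stress or handling, largely through the ERK kinase cascade, and their mRNAs are short-lived. Many of their products are transcription factors, while the Dusp phosphatases and Sprouty proteins made at the same time switch the cascade off again. Hypoxia genes are induced when the prolyl hydroxylases no longer mark the HIF transcription factors for destruction, and cholesterol synthesis genes are induced by SREBP2 when membrane sterol is low.

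Expression was given as FPKM, a level per length of transcript that is scaled to the depth of its library. The table held 2281 genes that the authors had already marked as significant, of which 2063 reached 1 FPKM in 3 or more of the 12 libraries and were tested, so shares describe this selected set and not the transcriptome. Summed over the table, the 6 libraries held between 75955 and 81924 FPKM, and the read depth behind them is unknown. Changes are differences of mean log2(FPKM + 1), overexpression control minus unmodified knockout, which makes the change of weakly expressed genes look smaller. A gene was said to rise or fall when limma gave an adjusted p under 0.05 (Benjamini-Hochberg over the 2063 genes). The authors' mark came from an unnamed comparison that may have used these same libraries. The calls inherit that selection, so the adjusted p may understate the share of false calls. Errors after ± are SDs over 3 libraries.

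Knockout libraries 1 and 2 stood apart from library 3 by transcripts of blood cells. The haemoglobin gene Hbb-bs stood at 196 FPKM in knockout library 1 and 59.7 in library 2, was listed at the table's lowest value, 1e-04, in library 3, and reached at most 0.170 in the overexpression control. Wild-type libraries 2 and 3 carried such transcripts too, with Hbb-bs at 169 and 70.3 FPKM beside 1.41 in wild-type library 1. The model term for blood transcripts used below marks wild-type libraries 2 and 3 and knockout libraries 1 and 2. The 6 red cell markers in the table, of 18 listed, summed to 602, 181 and 0.282 FPKM in knockout libraries 1 to 3 and to between 0.407 and 0.762 in the control. The 4 neutrophil markers in the table, of 18 listed, summed to 27.3, 32.4 and 0.714 in the knockout and to between 0.155 and 0.465 in the control. The 3 platelet markers in the table, of 10 listed, summed to 11.3, 7.96 and 1.77 against 1.5 to 1.66. Of the 9 tested red cell, neutrophil and platelet markers, 0 rose and 0 fell. Hba-a1, Hba-a2, Hbb-bs and Hbb-bt had log2 fold changes of -3.97 to -4.41 that missed the threshold, with a smallest adjusted p of 0.179 in limma. In all, 10 tested genes were higher by at least 1 on the log2 scale in both knockout libraries 1 and 2 than in library 3. They were the 4 haemoglobin genes, S100a8, S100a9, Pf4, Gp9, Alox5ap and Exosc6, and 0 of them were called. Over all tested genes, log2 differences of knockout library 3 from the control libraries had SDs of 0.188, 0.197 and 0.200. Its differences from knockout libraries 1 and 2 had larger SDs, 0.376 and 0.311, while libraries 1 and 2 differed with an SD of 0.173. The blood transcripts are among these genes, and their part in these SDs was not tested. The pan-leukocyte gene Ptprc did not exceed 0.194 FPKM in any of the 6 libraries, and the macrophage marker Cd68 lay between 105 and 118 in all of them. In such bulk samples a smaller number of cells of a type and less RNA per cell cannot be told apart. All libraries were labelled as coming from the GC1 line, and the source of the blood transcripts was not tested.

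**Figure D1:**
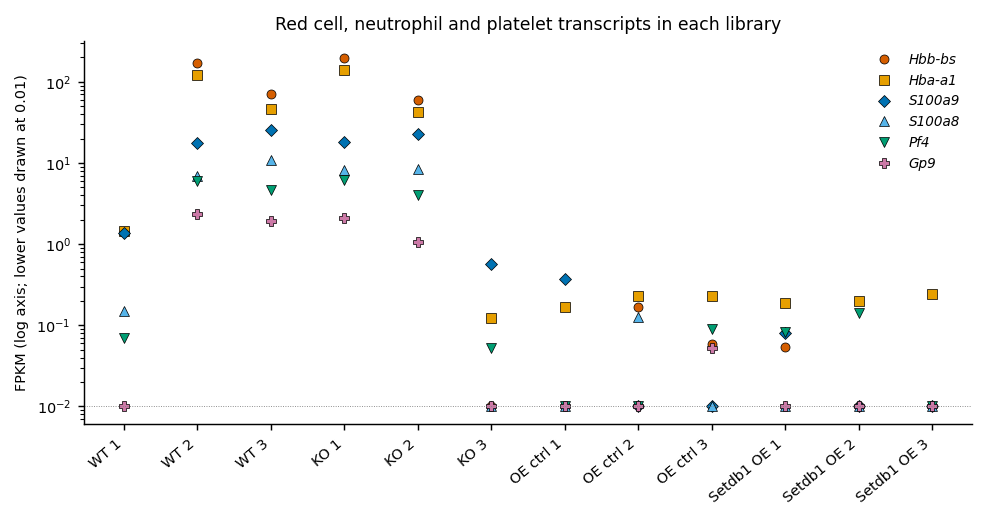
FPKM on a log axis of haemoglobin (Hbb-bs, Hba-a1), neutrophil (S100a8, S100a9) and platelet (Pf4, Gp9) transcripts in each of the 12 libraries, with values under 0.01 drawn at 0.01. Hbb-bs reached 196 and 59.7 FPKM in knockout libraries 1 and 2, 169 and 70.3 in wild-type libraries 2 and 3, and at most 0.170 in the overexpression control libraries.

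The targeted transcript was retained in both groups labelled as knockout, at a lower level than in wild-type cells, and did not separate them. Ythdf2 stood at 5.79, 6.07 and 6.28 FPKM in the unmodified knockout and at 6.14, 6.24 and 6.04 in the overexpression control, and the libraries overlapped. The log2 difference was 0.02 with an SE of 0.05 (adjusted p = 0.876 in limma), while wild-type cells stood at 9.0 ± 0.43 FPKM and Setdb1-overexpressing cells at 4.63 ± 0.383. The labels do not describe the edit, and the protein was not measured here.

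In the whole comparison 179 of 2063 tested genes were called, 8.68%. Of these 75 rose (3.64%) and 104 fell (5.04%), and 506 genes had an unadjusted p under 0.05. Most changes were small. The median absolute log2 fold change was 0.17 among the called genes and 0.05 among all tested genes, 130 called genes changed by less than 0.25, and the smallest called change was 0.05. No rise reached 1 on the log2 scale, and 2 falls did, Egr1 and Fos. The 3 libraries of one group lay wholly above or below those of the other for 618 genes, 30.0% of those tested, and this held for all 179 called genes. The share called went up with the level, from 3.49% in the lowest of 4 equal classes of mean level over the libraries, where the median SE was 0.06, to 14.3% in the highest, where it was 0.03, so small changes of low genes were the least detectable. With median-of-ratios scaling 95 genes rose and 91 fell, and with quantile normalization 87 rose and 78 fell, against 75 and 104 as deposited. Each of the 179 called genes kept its sign under both. Leaving out 1 library left between 93 and 128 calls, with 93 without control library 2 and 96 without knockout library 1, and 70 genes were called in all 6 such fits. Without knockout libraries 1 and 2, 53 genes were called, of which 41 were among the 179. That fit rests on 1 knockout library that is assumed to vary like the other groups.

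**Figure D2:**
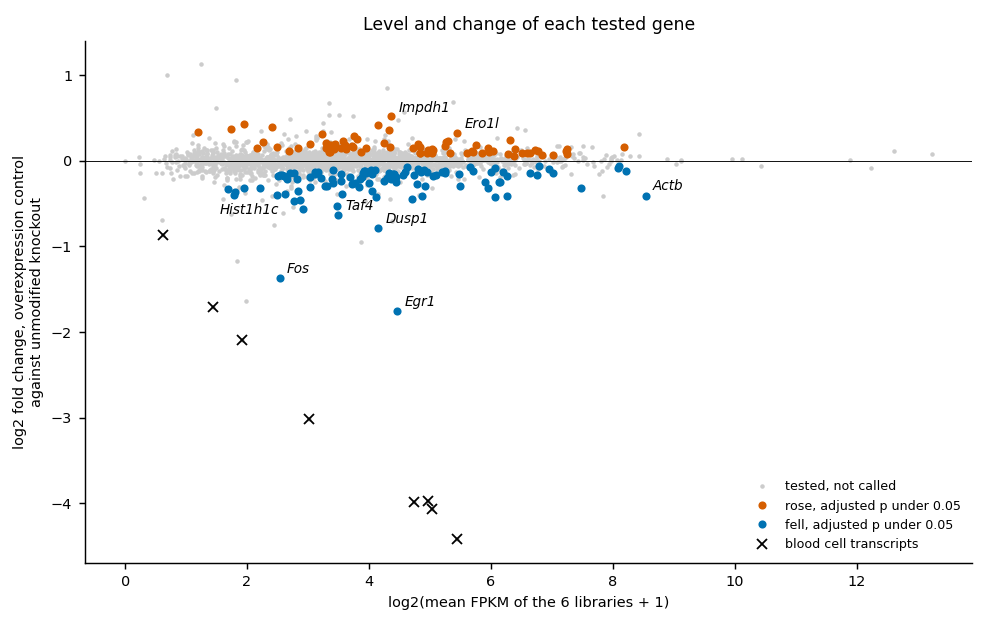
Log2 fold change of each tested gene, overexpression control against unmodified knockout, plotted against log2 of its mean FPKM over the 6 libraries plus 1. Egr1 and Fos fell by 1.75 and 1.37, the other called genes lay between -0.78 and 0.52, and the crosses mark 8 blood cell transcripts that were not called.

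Immediate early genes were lower in the overexpression control. Of 34 listed members 21 were in the table and 19 were tested. Of these 11 fell and 0 rose, 57.9% called beside 8.68% of all tested genes, with a median of -0.25 against -0.00 over all tested genes. The lists used throughout were drawn up with earlier results of these data known. Egr1, a zinc-finger transcription factor, stood at 32.9, 33.2 and 32.8 FPKM in the unmodified knockout and at 9.63, 8.78 and 8.84 in the control. Every knockout library was more than 20 FPKM above every control library, and the 3 knockout libraries lay within 1 FPKM of each other. The log2 fold change of Egr1 was -1.75 with an SE of 0.05 (adjusted p = 1.03e-08), and its mean FPKM changed by -72.5%. Egr1 stood at 10.1 ± 0.501 FPKM in wild-type cells and 8.93 ± 0.558 with Setdb1 overexpression.

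Fos, which encodes a subunit of the AP-1 transcription factor, stood at 7.45, 7.68 and 6.88 FPKM in the knockout and at 2.79, 1.96 and 1.99 in the control. The groups were far apart, with control library 1 the highest of its group. The log2 fold change was -1.37 with an SE of 0.09 (adjusted p = 1.28e-05), and the wild type and Setdb1 overexpression stood at 3.59 ± 0.313 and 2.34 ± 0.157. Jun, the partner of Fos in AP-1, went from 65.2, 64.2 and 62.8 to 54.5, 52.4 and 54.3 FPKM, again without overlap. Its fall was smaller, -0.25 (adjusted p = 0.000467), as was that of Junb, a further AP-1 subunit, from 75.8 ± 2.83 to 63.4 ± 1.31 FPKM (-0.25, adjusted p = 0.00162). Jun stood at 42.1 ± 1.46 in wild-type cells and Junb at 57.7 ± 2.47.

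Btg2, an antiproliferative gene that p53 also induces, stood at 86.9, 85.4 and 88.7 FPKM in the knockout and at 64.9, 65.3 and 65.8 in the control. The groups were separated by almost 20 FPKM, with a fall of 0.41 (SE 0.02, adjusted p = 1.35e-06). Ccn1, a secreted matrix-associated protein, stood at 194, 201 and 198 FPKM in the knockout and 157, 155 and 161 in the control, and fell by 0.32 (adjusted p = 5.86e-06). Its relative Ccn2 fell by 0.15 (adjusted p = 0.000815). Atf3, a stress-induced transcription factor, went from 67.7 ± 1.6 to 54.1 ± 4.87 FPKM (-0.32, adjusted p = 0.00726), with control library 1 the lowest at 48.5. Ier5, Myc and Klf4 fell by 0.26, 0.29 and 0.14. Their calls were less steady. Ier5 missed the threshold without knockout library 2 or 3 or control library 2 (adjusted p up to 0.0720), Myc without any library but knockout 2 (up to 0.0949), and Klf4 without control library 1 or 2 or knockout library 2 or 3 (up to 0.0769). For Myc, which drives growth and proliferation, knockout library 3 stood at 34.7 FPKM beside 31.1 and 30.6 in libraries 1 and 2, and the control at 26.6, 24.9 and 26.5. Without knockout libraries 1 and 2, 7 of the 11 immediate early genes were still called; Ier5, Atf3, Myc and Klf4 were not (adjusted p of 0.0717 to 0.168).

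Of the 8 tested members that were not called, 2 were uneven between libraries and the others had log2 fold changes of -0.12 to 0.04. Klf10, a TGF-beta-inducible zinc-finger gene, stood at 15.4 FPKM in knockout library 1, 30.7 and 29.3 in libraries 2 and 3, and 13.7 to 14.9 in the control (-0.70, adjusted p = 0.160). Maff, a small Maf factor, stood at 10.5, 22.5 and 21.7 in the knockout and 23.4 to 24.9 in the control (0.47, adjusted p = 0.205). For both genes knockout library 1 was far from the other 2, and the control libraries were close together. Nr4a1, an orphan nuclear receptor, had a log2 fold change of -0.12 (adjusted p = 0.316), and Fosl1 of -0.05 (adjusted p = 0.825).

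**Figure D3:**
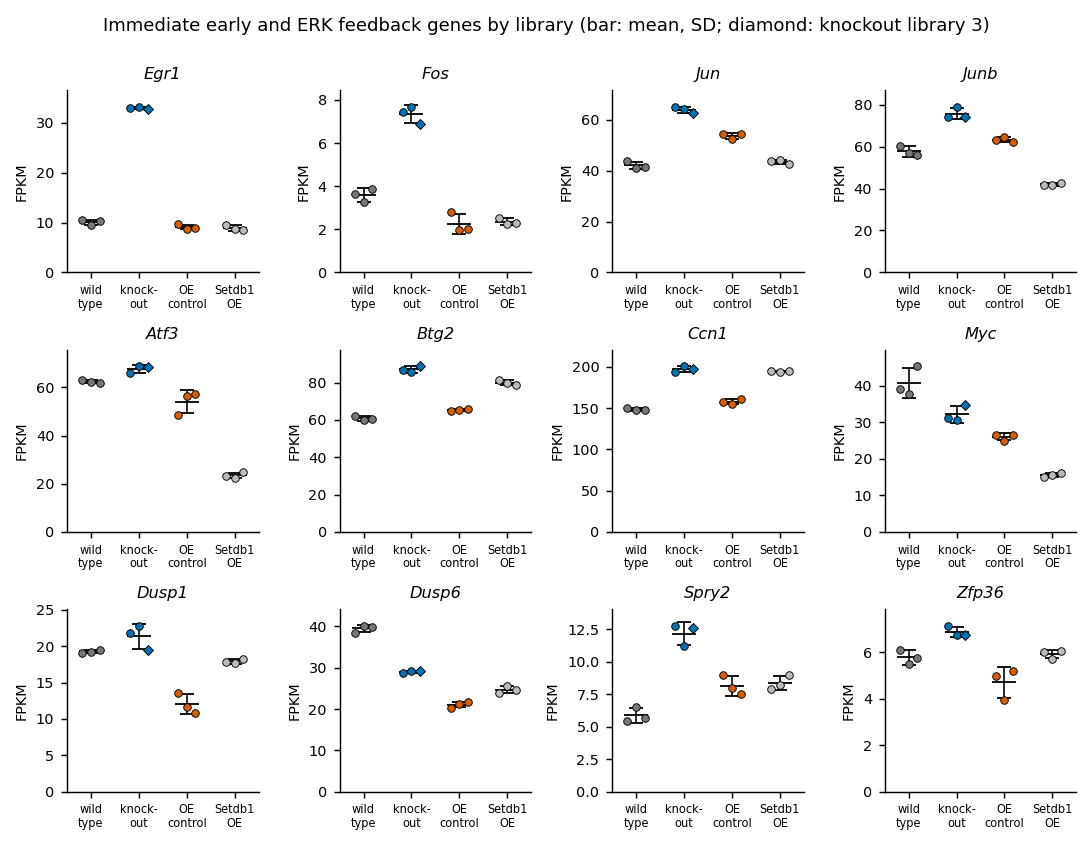
FPKM of 12 immediate early, ERK feedback and mRNA decay genes in each library of the 4 groups, with the mean and SD over 3 libraries as bars and knockout library 3 as a diamond. Egr1 lay between 32.8 and 33.2 FPKM in the unmodified knockout and between 8.78 and 9.63 in the overexpression control, and knockout library 3 was the highest of its group for Myc and the lowest for Dusp1.

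ERK feedback genes and targets were also lower where they changed. Of 7 tested members of a list of 21 ERK feedback genes and targets, 4 fell and 0 rose, 57.1% called beside 8.68% of all tested genes. The median of the 7 was -0.36 against -0.00 over all tested genes. Dusp1, a phosphatase of MAP kinases, stood at 21.9, 22.8 and 19.4 FPKM in the knockout and at 13.6, 11.6 and 10.9 in the control. The lowest knockout library, library 3, was still above the highest control library. Dusp1 fell by 0.78 (SE 0.07, adjusted p = 0.000117). Dusp6, a phosphatase that acts on ERK itself, stood at 28.8, 29.3 and 29.1 FPKM in the knockout and 20.3, 21.2 and 21.6 in the control. The libraries of each group were close together and the groups were apart by 7 FPKM or more, with a fall of 0.45 (SE 0.03, adjusted p = 1.22e-05). Spry2, a Sprouty inhibitor of receptor tyrosine kinase signalling, went from 12.8, 11.2 and 12.6 to 8.99, 7.95 and 7.51 FPKM and fell by 0.53 (SE 0.08, adjusted p = 0.003). Etv4, an ETS transcription factor downstream of ERK, went from 2.92 ± 0.258 to 2.05 ± 0.172 FPKM (-0.36, adjusted p = 0.0328) and lost its call without control library 1 or 2 or knockout library 1 or 3 (adjusted p up to 0.109). In wild-type cells Dusp6 stood above both groups, at 39.5 ± 0.926 FPKM, and Spry2 below both, at 5.88 ± 0.569. Not called were the ETS gene Etv5 (0.01, adjusted p = 0.936), the cyclin gene Ccnd1 (-0.05, adjusted p = 0.292) and the survival gene Mcl1 (-0.02, adjusted p = 0.695).

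Of 14 tested kinases and receptors of the pathway, 1 rose and 0 fell, 7.14% called and close to the 8.68% of all tested genes, with a median of -0.02. The rise was that of Pdgfra, the receptor for platelet-derived growth factor, from 5.16 ± 0.112 to 5.66 ± 0.138 FPKM (0.11, adjusted p = 0.0471), and leaving out any 1 of the 6 libraries ended that call (adjusted p up to 0.132). The insulin receptor gene Insr stood at 3.69, 4.95 and 4.90 FPKM in the knockout and at 2.90 to 3.14 in the control (-0.45, adjusted p = 0.124). Of 5 tested genes of decay through AU-rich elements, the sequences that make immediate early mRNAs unstable, 2 fell and 0 rose. That was 40% called beside 8.68% of all tested genes, with a median of -0.07. Zfp36, which encodes tristetraprolin and is itself an immediate early gene, went from 7.14, 6.74 and 6.74 to 4.97, 3.95 and 5.20 FPKM, without overlap. It fell by 0.47 (SE 0.07, adjusted p = 0.00369), with adjusted p = 0.102 in the fit without knockout libraries 1 and 2. Zfp36l1 fell by 0.20 (adjusted p = 0.00212). The 4 tested heat shock chaperone genes held 0 calls, with log2 fold changes of -0.04 to 0.04 (smallest adjusted p 0.309 in limma).

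Promoter sequence was read for these genes because they share known elements, from the 250 bases before each start in the RefSeq promoter table (mouse build GRCm38.p6). A promoter was matched for 8 of the 11 immediate early genes and 3 of the 4 ERK feedback genes that fell. The cyclic AMP response element TGACGTCA, which reads the same on both strands, was found in Btg2 and Dusp1, against 3.00% of 1665 tested genes with a promoter and 1.55% of all 32851 promoters in the table. The windows are shown on the strand of the gene with that element in capitals, for Btg2 at chr1:134079303-134079332 and for Dusp1 at chr17:26508597-26508626, both on the minus strand.
Btg2: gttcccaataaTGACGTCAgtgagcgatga
Dusp1: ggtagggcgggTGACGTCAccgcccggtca
The element began 166 bases before the start of Btg2 and 143 before that of Dusp1. The CArG box, the element that serum response factor binds, was found in 0 of the 11 promoters, against 1.5% of tested genes. A match is a run of letters and not a shown binding site, and a missing match says only that the letters are absent from this window.

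Hypoxia and glycolysis genes were higher in the overexpression control. Of 40 listed members 12 were tested, of which 7 rose and 0 fell, 58.3% called beside 8.68% of all tested genes. The median of the 12 was 0.16 against -0.00 over all tested genes. Ero1l, an oxidase that forms disulfide bonds in the endoplasmic reticulum, stood at 36.9, 37.8 and 38.3 FPKM in the knockout and at 47.1, 48.0 and 47.0 in the control. The groups were separated by more than 8 FPKM. Ero1l rose by 0.32 (SE 0.03, adjusted p = 5.58e-05), and stood at 53.9 ± 0.289 in wild-type cells and 19.4 ± 0.793 with Setdb1 overexpression.

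Egln3 and Egln1 encode the oxygen-sensing prolyl hydroxylases that mark HIF. Egln3 went from 12.2, 11.9 and 11.1 to 14.4, 14.2 and 13.9 FPKM, with knockout library 3 the lowest of the compared libraries. Egln3 rose by 0.25 (SE 0.03, adjusted p = 0.00162). Egln1 went from 24.9, 25.3 and 25.3 to 29.5, 27.8 and 29.5 FPKM and rose by 0.20 (adjusted p = 0.00379). Both stood lower in wild-type cells than in the control, at 11.9 ± 0.159 and 21.7 ± 0.649.

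Ndrg1, a stress-responsive growth regulator, stood at 145, 143 and 144 FPKM in the knockout and 158, 158 and 160 in the control. The libraries of each group differed by 2 FPKM or so, and the rise of 0.14 had an SE of 0.02 (adjusted p = 0.000466). P4ha2, a hydroxylase of collagen proline, rose by 0.17 from 34.6 ± 0.727 to 39.0 ± 0.927 FPKM (adjusted p = 0.00211). Pdk1, a kinase that turns pyruvate away from the mitochondria, rose by 0.18 from 11.4 ± 0.0798 to 13.1 ± 0.153 FPKM (adjusted p = 0.00764). Pfkp, a phosphofructokinase of glycolysis, rose by 0.18 from 8.48 ± 0.149 to 9.77 ± 0.211 FPKM (adjusted p = 0.0402), but missed the threshold when any 1 of the 6 libraries was removed (adjusted p up to 0.110). Without knockout libraries 1 and 2, 4 of the 7 were called, and Egln1, Pdk1 and Pfkp had adjusted p = 0.101, 0.121 and 0.227.

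Not all hypoxia genes moved. The angiogenic factor gene Vegfa stood at 55.6, 54.3 and 52.5 FPKM in the knockout and 55.3, 53.2 and 51.8 in the control (-0.02, adjusted p = 0.760). Hif1a, the oxygen-regulated subunit itself, had a log2 fold change of 0.02 (adjusted p = 0.438). Hk1, a hexokinase, reached 17.7 FPKM in control library 1 against 14.3 and 14.1 in the other 2 and 13.3 to 14.1 in the knockout (0.16, adjusted p = 0.443).

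The core of the hypoxia response element, ACGTG or GCGTG on either strand, was found before the start of 6 of the 6 risen hypoxia genes that had a promoter in the table. It is a common run of letters, present in 64.1% of tested genes with a promoter and in 38.6% of all promoters. It was also found in 6 of 8 immediate early genes and 3 of 5 cholesterol genes that fell. A window around 1 match of each is shown on the strand of the gene with that match in capitals, other matches being left in lower case, for Ero1l at chr14:45318644-45318673 (minus strand), Egln3 at chr12:54204087-54204116 (minus), Egln1 at chr8:124949306-124949335 (minus), P4ha2 at chr11:54100833-54100862 (plus), Pdk1 at chr2:71873133-71873162 (plus) and Pfkp at chr13:6648823-6648852 (minus).
Ero1l: ccgcccgaggctcGCGTGgacagaggcgcg
Egln3: atgtgcatctcagACGTGagatccaggttt
Egln1: ggggccgtggtgtACGTGcagcgcgcgcgg
P4ha2: gtgtgcatcgcatACGTGcagcgcgtggcg
Pdk1: cccgcctacatggGCGTGtctttaaccagg
Pfkp: aggccccgcccttGCGTGagtcccgcccat

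Cholesterol synthesis genes were lower in the overexpression control. Of 13 tested members of a list of 29, 6 fell and 0 rose, 46.2% called beside 8.68% of all tested genes. The median of the 13 was -0.16 against -0.00 over all tested genes. Mvk, the mevalonate kinase early in the pathway, went from 19.9, 19.6 and 19.0 to 16.6, 15.8 and 16.8 FPKM. The groups did not overlap, and Mvk fell by 0.24 (SE 0.04, adjusted p = 0.00379). It stood at 16.2 ± 0.734 in wild-type cells and 19.1 ± 0.622 with Setdb1 overexpression. Cyp51, the demethylase of lanosterol, went from 8.95 ± 0.222 to 7.66 ± 0.175 FPKM (-0.20, adjusted p = 0.003), and Nsdhl, a dehydrogenase of the next steps, from 14.5 ± 0.322 to 12.4 ± 0.447 (-0.22, adjusted p = 0.0114). Msmo1, the sterol methyl oxidase, fell by 0.30 (adjusted p = 0.0338), with control library 2 at 10.5 FPKM below the other 2 at 12.5 and 12.2. Srebf2, which encodes the transcription factor SREBP2 that induces the pathway, fell by 0.13 from 29.3 ± 0.395 to 26.7 ± 1.14 FPKM (adjusted p = 0.0469). The call of Msmo1 was lost without any library but control 1 (adjusted p up to 0.106) and that of Srebf2 without any library but control 3 (up to 0.124). The epoxidase gene Sqle did not pass (-0.22, adjusted p = 0.0629). With a model term for the libraries that carry blood transcripts 3 of the 6 were called, Mvk and Cyp51 among them, and without knockout libraries 1 and 2 there was 1 call, with Mvk, Cyp51, Nsdhl, Msmo1 and Srebf2 at adjusted p of 0.0919 to 0.324. The sterol element core TCACNCCAC was found on neither strand of the 5 promoters in the table, against 1.08% of tested genes.

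**Figure D4:**
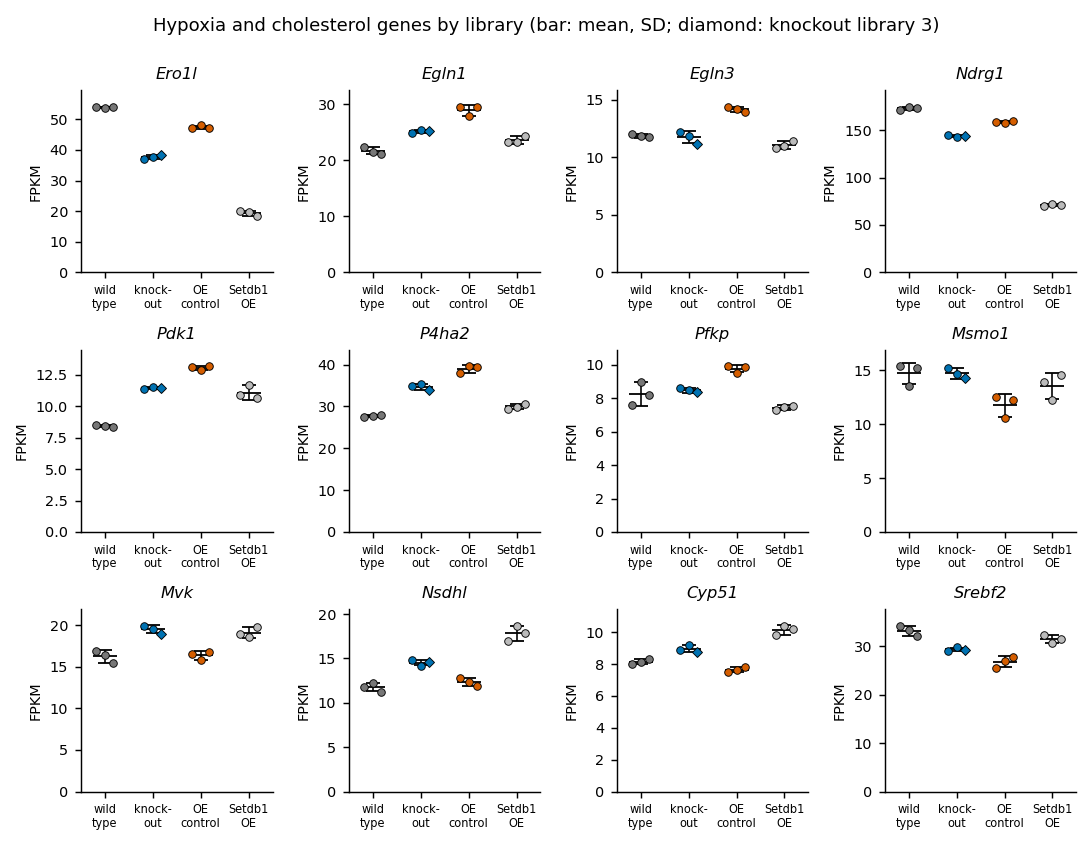
FPKM of the 7 hypoxia genes that rose and of 5 of the 6 cholesterol genes that fell, in each library of the 4 groups, with the mean and SD over 3 libraries as bars and knockout library 3 as a diamond. Ero1l lay between 36.9 and 38.3 FPKM in the unmodified knockout and 47.0 to 48.0 in the overexpression control, and Mvk between 19.0 and 19.9 against 15.8 to 16.8.

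Outside these lists, a large and steady fall was that of Taf4, a subunit of the general transcription factor TFIID. It stood at 12.7, 12.7 and 12.8 FPKM in the knockout and at 8.03, 7.51 and 8.01 in the control. The knockout libraries were almost level, and the control was apart from the wild type too, at 12.7 ± 0.141, and from Setdb1 overexpression, at 11.2 ± 0.324. Taf4 fell by 0.63 (SE 0.03, adjusted p = 9.55e-07). Among 15 tested genes of RNA polymerase II and its general factors, of which 13.3% were called, it was the only one that fell. Of all tested genes 8.68% were called. The only rise in the list was that of Ccnk, a cyclin of the kinases that act on elongating polymerase. It went from 14.1 ± 0.508 to 19.3 ± 1.01 FPKM (0.42, adjusted p = 0.0298), with its call lost without any library but control 3 (adjusted p up to 0.0949).

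Chromatin architecture genes held single changes of opposite sign, 2 calls among 8 tested genes (25%) beside 8.68% of all tested genes. Hmgn3, a nucleosome-binding protein, went from 3.86, 3.57 and 3.39 to 5.39, 5.03 and 4.67 FPKM, without overlap, and rose by 0.39 (SE 0.06, adjusted p = 0.00312). Its relative Hmgn5 went from 4.93, 5.14 and 6.11 to 3.97, 3.65 and 3.86 FPKM, with knockout library 3 the highest, and fell by 0.40 (adjusted p = 0.0227). Its call was lost without knockout library 3 or control library 2 or 3 (adjusted p up to 0.0771). Hist1h1c, a linker histone gene and the only call among 5 tested histone genes, stood at 8.63, 9.14 and 6.29 FPKM in the knockout and 4.8, 4.89 and 5.45 in the control (-0.56, adjusted p = 0.0249). Knockout library 3, without blood transcripts, was the lowest of its group, and with it alone the adjusted p was 0.389. Removing control library 1 or 2 or knockout library 1 or 2 also ended the call (adjusted p up to 0.0824). In all, 16 of the 179 called genes had knockout libraries 1 and 2 apart from library 3 by more than 0.5 of their change, Hist1h1c, Hmgn5 and Myc among them; the part of the blood transcripts in these was not tested.

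The other large rises did not belong to 1 list. Impdh1, an enzyme of guanine nucleotide synthesis, had the largest rise among called genes on the log2(FPKM + 1) scale, from 16.6, 14.1 and 17.1 to 23.3, 23.4 and 23.1 FPKM (0.52, SE 0.13, adjusted p = 0.0352). The knockout libraries were uneven and the control libraries level, and leaving out any 1 of the 6 ended the call (adjusted p up to 0.108). Hadhb, a subunit of the enzyme complex of mitochondrial fatty acid oxidation, rose by 0.31 from 7.36 ± 0.232 to 9.34 ± 0.389 FPKM (adjusted p = 0.00369), the only call among 5 tested genes of that pathway, with adjusted p = 0.0523 without knockout libraries 1 and 2. Lox, which crosslinks collagen and elastin, stood at 71.9, 70.8 and 72.1 FPKM in the knockout and 84.8, 84.6 and 85.0 in the control. Its libraries were closely grouped, with a rise of 0.24 (SE 0.02, adjusted p = 4.25e-05). Kctd11, an adaptor of ubiquitin ligases, rose by 0.29 (adjusted p = 0.00117). By mean FPKM the rises of Oxnad1 and 1700007K13Rik were larger, at 51.0% and 52.8% against 46.0% for Impdh1, from low levels. Less steady rises were those of Oxnad1 (0.43), the selenium-binding protein gene Selenbp1 (0.37), the lipid amidase gene Naaa (0.35), 1700007K13Rik (0.34), the clock gene Per1 (0.23) and the Polycomb gene Cbx8 (0.22). Each lost its call without at least 1 library: Selenbp1 without knockout library 1 (adjusted p = 0.0557), Oxnad1 without control library 1 or 2 or knockout library 1 or 3 (up to 0.0942), and Cbx8 without control library 2 or 3 or knockout library 2 or 3 (up to 0.0857). Naaa lost its call without any library but control 1 (up to 0.144), as did 1700007K13Rik (up to 0.0941), and Per1 without any library but control 3 (up to 0.0766).

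Genes of the actin cytoskeleton were lower where they changed. Among 14 tested actin, SRF and YAP target genes there were 5 falls and 0 rises, 35.7% called against 8.68% of all tested genes, at a median of -0.06. On leaving out 1 library at a time, only 0 to 3 members of this list were called. Actb, the cytoplasmic actin often used as a reference gene, stood at 432, 403 and 429 FPKM in the knockout and at 298, 291 and 368 in the control. All 3 control libraries were lower and they were uneven, with a fall of 0.41 (SE 0.09, adjusted p = 0.0186). Limk1, a kinase that stabilises actin filaments, fell by 0.46 from 7.46 ± 0.285 to 5.17 ± 0.215 FPKM (adjusted p = 0.0338), and the actin-binding calponin gene Cnn2 fell by 0.17 (adjusted p = 0.0298). None of these calls held throughout: Limk1 lost its call without any 1 of the 6 libraries (adjusted p up to 0.101), Actb without control library 1 or 2 or knockout library 1 or 3 (up to 0.0675), and Cnn2 without control library 1 or 2 or knockout library 1 or 2 (up to 0.101). The hyaluronan receptor gene Cd44 fell by 0.42 and the RNA-binding gene Myef2 by 0.43, and both lost their calls without any library but knockout 2 (adjusted p up to 0.0857 and 0.145). Of 15 tested integrins, cadherins and laminins, 0 were called, with a smallest adjusted p of 0.0637 in limma.

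Few markers of cell identity were in the table. Of 30 spermatogonial markers 6 were in the table and tested, and 1 rose. It was Cd9, a surface tetraspanin of spermatogonial stem cells, from 49.4 ± 1.36 to 56.2 ± 1.62 FPKM (0.18, adjusted p = 0.0339), with its call lost on leaving out any 1 library (adjusted p up to 0.106). The transcription factor gene Pou3f1 had a larger log2 fold change of -0.54 that was not called (adjusted p = 0.247), with 5.20, 10.8 and 5.39 FPKM in the knockout and 4.21 to 4.52 in the control. Knockout library 2 was far above the others. Of 6 tested Sertoli cell markers 1 fell, Gdnf, the niche factor of spermatogonial stem cells, from 14.9, 14.9 and 14.3 to 12.9, 12.9 and 12.5 FPKM (-0.19, adjusted p = 0.00832). Its libraries did not overlap, and wild-type cells stood higher, at 24.1 ± 0.889. Gdnf missed the threshold with a model term for the libraries that carry blood transcripts (adjusted p = 0.0710) and without knockout libraries 1 and 2 (0.202). Of 9 tested fibroblast markers 4 rose and 1 fell, 55.6% called beside 8.68% of all tested genes, with a median of 0.05. On leaving out 1 library at a time, only 1 to 3 of the fibroblast markers were called. The rises were Lox, the collagenase gene Mmp2 (0.23, adjusted p = 0.0235), Pdgfra and the secreted glycoprotein gene Fstl1 (0.08, adjusted p = 0.0148). Mmp2 lost its call without any library but control 3 (adjusted p up to 0.0678) and Fstl1 without knockout library 1 or control library 2 (up to 0.0559). The summed level of the 11 fibroblast markers in the table was 1200 to 1213 FPKM in the knockout and 1237 to 1255 in the control. Of 5 tested epithelial markers 1 rose, the keratin gene Krt19, from 273, 279 and 271 to 305, 301 and 316 FPKM (0.16, adjusted p = 0.00216). With quantile normalization the adjusted p was 0.411 for Krt19 and 0.562 for Fstl1. Of 9 Leydig cell markers 0 were in the table, and the 1 tested endothelial marker was not called. The part of other cell types in these changes was not tested.

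Genes of mitosis were lower where they changed, by small amounts. Of 38 tested 6 fell and 0 rose, 15.8% called against 8.68% of all tested genes, with a median of -0.05. Cenpf, a kinetochore protein, went from 4.02, 3.99 and 4.35 to 3.13, 3.26 and 2.92 FPKM and fell by 0.32 (SE 0.04, adjusted p = 0.00165). The mitotic kinesin gene Kif20b fell by 0.31 from 8.03 ± 0.261 to 6.28 ± 0.243 FPKM (adjusted p = 0.00459), and Sgo1, which protects centromere cohesion, by 0.16 (adjusted p = 0.00528). Of 28 tested replication genes 1 rose and 2 fell, 10.7% called. Rrm2, a subunit of ribonucleotide reductase, fell by 0.14 from 38.7 ± 0.521 to 35 ± 0.474 FPKM (adjusted p = 0.00312). Mcm6, a subunit of the replicative helicase, rose by 0.05 (adjusted p = 0.0469), the smallest called change, and lost its call on leaving out any 1 library (adjusted p up to 0.126). Without knockout libraries 1 and 2 the adjusted p was 0.0540 for Kif20b, 0.0665 for Sgo1 and 0.0520 for Rrm2, and with the model term for blood transcripts it was 0.0516 for Kif20b. Sgo1 also missed the threshold when only the 6 compared libraries were fitted (0.0610). Of 26 tested p53 targets 1 rose and 6 fell (26.9% called), with a median of -0.02. Besides Btg2, the polo-like kinase gene Plk2 went from 74.5, 76.0 and 73.7 to 62.7, 64.6 and 61.5 FPKM (-0.24, adjusted p = 0.000117) and the ephrin receptor gene Epha2 from 113 ± 1.42 to 100 ± 1.89 (-0.17, adjusted p = 0.00041).

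The lists nearest to the subject of the series were small and held 0 to 2 calls each, where 8.68% of all tested genes were called. The share called was 28.6% for end joining and 10% for H3K9 methylation and heterochromatin. In lists of 7 and 10 tested genes such shares rest on 1 or 2 genes. Of 16 tested homologous recombination genes 0 were called (smallest adjusted p 0.0870 in limma), of 13 DNA damage signalling genes 0 (0.0528) and of 6 genes of the m6A machinery 0 (0.0567). The submitters' broader term for double-strand break repair via homologous recombination held 0 rises and 3 falls among 34 tested genes (8.82%), with a smallest adjusted p of 0.0186. Of 7 tested end joining genes 1 rose and 1 fell. Xrcc6, which encodes the DNA end-binding protein Ku70, went from 18.4, 17.6 and 18.8 to 20.2, 20.4 and 20.8 FPKM (0.15, adjusted p = 0.0140). Its call was lost with the model term for blood transcripts (adjusted p = 0.0787) and without knockout libraries 1 and 2 (0.222). Cyren, a modulator of end joining, went from 9.95, 8.68 and 10.4 to 7.13, 8.04 and 7.87 FPKM (-0.30, adjusted p = 0.0192) and lost its call without knockout library 1 or 3 or control library 1 (adjusted p up to 0.0645). Nabp1, a single-strand DNA-binding protein of the damage response, went from 2.95, 2.95 and 2.81 to 2.24, 1.63 and 2.01 FPKM (-0.40, adjusted p = 0.0186) and lost its call without control library 2 or knockout library 1 or 2 (up to 0.0574). Of 10 tested genes of H3K9 methylation and heterochromatin 1 fell, Uhrf1, which recruits the maintenance DNA methyltransferase, from 31.2 ± 0.179 to 28.4 ± 0.497 FPKM (-0.13, adjusted p = 0.003), with adjusted p = 0.0573 without knockout libraries 1 and 2.

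Stress and inflammatory genes moved in both directions. Of 15 tested genes of the integrated stress and unfolded protein responses 3 rose and 3 fell. That was 40% called beside 8.68% of all tested genes, with a median of 0.00. The mitochondrial folate enzyme gene Aldh1l2 rose by 0.20 from 16.6 ± 0.26 to 19.3 ± 0.541 FPKM (adjusted p = 0.00162), the chaperone calreticulin gene Calr fell by 0.12 (adjusted p = 0.00209) and the transcription factor gene Cebpb fell by 0.30 from 48.7 ± 2.64 to 39.4 ± 0.686 FPKM (adjusted p = 0.00402). Without knockout libraries 1 and 2 Calr and Cebpb were not called (adjusted p = 0.0573 and 0.104). Ccl2, a chemokine that attracts monocytes, stood at 73.0, 77.4 and 75.8 FPKM in the knockout and at 55.4, 56.8 and 55.4 in the control. The groups were more than 15 FPKM apart, with a fall of 0.43 (SE 0.03, adjusted p = 4.93e-05). Ccl2 and Rela, an NF-kB subunit (-0.08, adjusted p = 0.0263), were the 2 of 10 tested sensor and NF-kB genes that fell, 20% called. Rela lost its call without control library 2 or 3 or knockout library 2 or 3 (adjusted p up to 0.0794). Of 25 tested interferon-stimulated genes 1 rose, 4% against 8.68% of all tested genes. It was the exonuclease gene Isg20, from 11.5 ± 0.288 to 13 ± 0.205 FPKM (0.16, adjusted p = 0.0359), and leaving out any 1 library ended its call (adjusted p up to 0.108). The class I histocompatibility gene H2-K1 stood at 10.4, 10.5 and 19.3 FPKM in the knockout and 23.1 to 25.1 in the control (0.85, adjusted p = 0.0789), with knockout library 3 nearer to the control than to libraries 1 and 2. Oxidative phosphorylation held 1 rise among 19 tested nuclear genes, Ndufv3 of complex I (0.16, adjusted p = 0.0263), which lost its call without control library 1 or 3 or knockout library 2 or 3 (adjusted p up to 0.0788). The 6 mitochondrially encoded transcripts held 0 calls (smallest adjusted p 0.124 in limma), as did the 13 tested apoptosis genes (0.158).

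**Figure D5:**
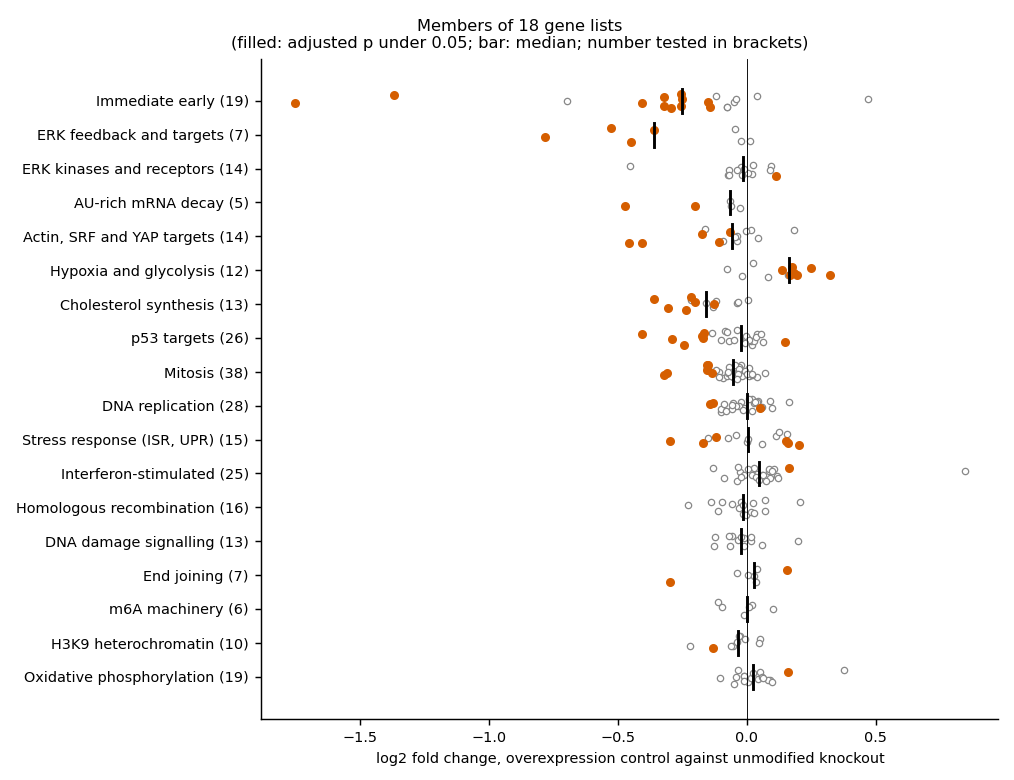
Log2 fold change, overexpression control against unmodified knockout, of each tested member of 18 gene lists, with called genes filled and the median of each list as a bar. The medians were -0.25 for immediate early genes, -0.36 for ERK feedback genes, 0.16 for hypoxia genes and -0.16 for cholesterol genes, and the medians of the other lists lay between -0.07 and 0.05.

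By the 25 Gene Ontology target terms that the submitters attached to the genes, the share called ranged from 2.82% of 71 tested genes for protein stabilization to 15.1% of 86 for regulation of cell population proliferation, beside 8.68% overall. Oxidation-reduction process was the term with the most rises, 25 against 12 falls among 258 tested genes (14.3% called). Its rises included Ero1l, Egln3 and Lox, and its falls Cyp51, Nsdhl and Msmo1. Genes marked with DNA-binding transcription factor activity held 2 rises and 18 falls among 224 tested, and their share called, 8.93%, was close to that of all tested genes. The submitters' term for apoptotic process marked the same 257 genes in the table as that term, so it gave no separate count. DNA repair held 0 rises and 6 falls among 145 tested genes (4.14%), RNA splicing 0 and 4 among 103 (3.88%), and focal adhesion 0 and 7 among 80 (8.75%).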

How the data were processed

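The data are RNA-seq of 12 GC1 libraries. The authors deposited 1 table of FPKM values with 1 column per library. Per the submitters' processing notes, the tools were StringTie, HISAT2, cutadapt, DESeq2 and edgeR, listed without a role or version. Neither build nor annotation was stated, both being not given in the sources used here. The deposited table also holds a p-value and a q-value for each gene from an unnamed comparison: all 2281 genes in the authors' deposited table were marked significant, with a highest p of 0.05 and a highest q of 0.113. All gene IDs matched a symbol. Counts were not used, and with the depth unknown no interval for counting error can be given.

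Columns were assigned to groups by the labels. Values were analysed as log2(FPKM + 1), a pseudocount of 1, for the 2063 genes that reached 1 FPKM in 3 or more libraries. Limma-trend (limma 3.58.1, R 4.3.3) fitted 1 mean per group over all 12 libraries; tests were two-sided. The procedure was checked on simulated data. Named were the 15 largest called changes in each direction without overlap between groups, all called members of the immediate early, ERK feedback, hypoxia and cholesterol lists, up to 3 called members with the smallest adjusted p of each other list, and Ythdf2; uncalled genes named in the text and the genes that split the knockout libraries were chosen after their values were seen. The comparison, the 38 gene lists and the rule were chosen with earlier results of these data known. Promoters came from RefSeq and were matched by symbol. Alternatives changed the pseudocount, filter, scaling, libraries, trend and model terms. Some members of the cholesterol list are not reported here by name.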

Additional observations from a re-analysis of the deposited data

How the results depend on the processing

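The number of called genes, 179 in the main analysis, was 106 when only the 6 compared libraries were fitted, 66 when the model held a term for the 4 libraries that carry blood transcripts, and 53 without the 2 knockout libraries among these 4. It lay between 93 and 128 on leaving out 1 library at a time. Apart from the replicate block, given below, the other settings gave 158 to 193 calls. A correction for GC content and length, chosen after seeing the data, gave 174. Every called gene that was tested kept its sign in every setting. Deviations of same-numbered knockout and control libraries from their group means correlated at 0.01, -0.04 and -0.02 over the tested genes. These values gave no sign of pairing by number. They cannot exclude it, since the blood transcripts of knockout libraries 1 and 2 enter the deviations. With the replicate number as a block 126 genes were called. The 11 immediate early falls became 7 without the 2 knockout libraries with blood transcripts (8 to 10 on leaving out 1 library), and the 4 ERK feedback falls 3 to 4 on leaving out 1. The 7 hypoxia rises became 4 without those knockout libraries (6 to 6 on leaving out 1). The 6 cholesterol falls became 3 with the model term and 1 without those libraries (4 to 5 on leaving out 1). The Ythdf2 difference, 0.02 and not called, was -0.028 without those libraries and ran from -0.0072 without knockout library 1 to 0.043 without knockout library 3. The cause of these shifts was not tested.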
